A study of Rattus norvegicus with 12 samples.

Results

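Rats given 1 µg of diethylstilbestrol (DES, a synthetic estrogen) as newborns were compared with rats given the oil vehicle alone, at 49 days of age, in the terminal end buds of the mammary gland. The comparison rests on 4 of the 12 arrays of the study: 2 arrays of the DES 1 µg group and 2 of the oil group, chosen by treatment and age in the sample labels. All animals were inbred female Sprague-Dawley rats that received a single injection under the skin within a day of birth, of sesame oil without DES or of DES at 1 or 100 µg in sesame oil. Autopsy was at 35 or 49 days, which gives 6 groups of 2 animals, with 1 array per animal. End buds were cut from frozen, toluidine blue-stained sections of the abdominal glands by laser microdissection, and their RNA was amplified, labelled with Cy3 and hybridized to Agilent 1-colour rat arrays. The DES 100 µg group at 49 days and the oil and DES 1 µg groups at 35 days enter below where they bear on the DES 1 µg difference at 49 days. Each DES group stands for 2 animals given a single neonatal dose, and the cut tissue is an end bud with whatever stroma lay in the cut, not a sorted cell type.

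Terminal end buds are the club-shaped tips of the growing ducts. A cap layer of basal cells surrounds body cells of the luminal lineage, and fat, fibroblasts, vessels and mast cells lie around them. Estrogen drives duct elongation largely through paracrine signals, among them amphiregulin acting on the stroma and growth hormone with Igf1, whereas progesterone and prolactin drive side branching and milk gene expression. Immediate early genes such as Egr1 and the AP-1 factors are switched on within minutes by growth factors and by stress, including the handling of tissue.

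The 2 oil arrays at 49 days stood apart from the other 10 in ways that touch every result below. Their 75th percentile signals were 155 and 142.25, against 217 and 210 in the DES 1 µg group at 49 days and 210 to 333 over the other 10 arrays. The lowest signal called detected was 1.04 and 1.03 of the array median in the oil group, and 0.364 and 0.368 in the DES 1 µg group. With oil 47.2% of probes were called detected on the array pair, and with DES 1 µg 57.5%. On the first principal component of the fitted values, which held 42.5% of the variance, the oil arrays scored 75.9 and 70.4 and the other arrays -35.5 to 9.62. Within these 4 arrays, low signal and oil treatment ran together and cannot be told apart. The scan day of the oil arrays at 49 days was not used here, so its part was not tested. A fit with the log2 of each array's 75th percentile signal as a covariate, estimated over the 12 arrays, is therefore quoted beside many of the main values.

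Levels are given as multiples of the array median, differences as log2 with their standard error (SE), and n is 2 arrays a group throughout. Adjusted p-values come from limma with Benjamini-Hochberg adjustment, from 1 fit over all 12 arrays, at a threshold of 0.05. "Rose" and "fell" mean that a gene passed that threshold and was higher or lower with DES 1 µg than with oil at 49 days. Nothing but the 2 animals of a group supports each value. The p-values set a difference against a spread pooled over all 6 groups (6 residual degrees of freedom) and moderated by limma, not against the spread of the compared animals alone.

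Many genes differed between the groups, with more lower than higher after DES 1 µg. Of 8980 genes and unnamed probes detected on all 4 arrays, 2953 passed, which is 32.9%: 848 rose (9.44%) and 2105 fell (23.4%). The median difference over all 8980 was -0.15, so a gene at that value sat in the middle of the distribution. Scaling each array by its 75th percentile gave 1256 higher and 1626 lower, and quantile normalization gave 1252 and 1369, so the share of higher genes among those passing moved from 28.7% to 43.6% and 47.8%. With array signal as a covariate, 445 rose and 1242 fell. Leaving out a single array lowered the count from 2953 to 1006 without the oil array of replicate 1, 1494 without the oil array of replicate 2, 1218 without the DES 1 µg array of replicate 1, and 1445 without the DES 1 µg array of replicate 2.

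Both DES arrays lay above both oil arrays for 27.8% of the 8980 and below both for 50.9%. Of the 2245 brightest by mean level, 4.77% rose and 32.3% fell, with a median of -0.27, while of the 2245 dimmest 11.6% rose and 21.2% fell. Detection was uneven as well. A further 1746 genes and probes were detected on both DES arrays and not on both oil arrays, against 46 detected on both oil arrays and not on both DES arrays. A gene that was low in oil could therefore seldom enter the test, and such genes are described as lower bounds near the end.

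Genes of the early growth and stress response had the highest rises. Ier3, an early response gene of cell survival, stood at 11 and 11.6 in oil and at 108 and 93.9 with DES 1 µg. Its log2 difference was 3.16 (SE 0.14, limma adjusted p = 4.17e-05). The other 10 arrays of the study read between 11 and 31.2, so the DES 1 µg pair at 49 days alone was high. Gadd45g, a growth arrest and stress sensor, was at 27.5 and 24.1 in oil and 197 and 194 with DES 1 µg (2.93, SE 0.19). Ccn1, a matricellular protein also called Cyr61, was at 8.90 and 9.41 against 60.2 and 51.8 (2.61, SE 0.14). No overlap between the groups was a condition for picking these genes. Of all 8980 tested, 27.8% were higher on both DES arrays than on both oil arrays.

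Sgk1, a kinase induced by glucocorticoids and stress, was at 10.4 on both oil arrays and at 34.8 and 37.9 with DES 1 µg (1.80, SE 0.13). Egr1, a zinc finger factor that is a prototype immediate early gene, was at 157 and 135 in oil and at 376 and 385 with DES 1 µg (1.39, SE 0.19, limma adjusted p = 0.00201). Junb, an AP-1 subunit, was at 2.55 and 3.14 against 7.75 and 6.56 (1.33, SE 0.18). For Sgk1 and Egr1, no other array of the study reached the DES 1 µg arrays at 49 days. Atf3, a stress-induced repressor, behaved differently: oil arrays at 49 days read 3.70 and 4.19, DES 1 µg arrays 17.6 and 16.9, and DES 100 µg arrays 20.1 and 20.0. For Atf3 the oil pair at 49 days was the low one, with oil arrays at 35 days at 14.9 and 14.8 and the DES 1 µg arrays at 35 days at 5.55 and 4.70.

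**Figure D1:**
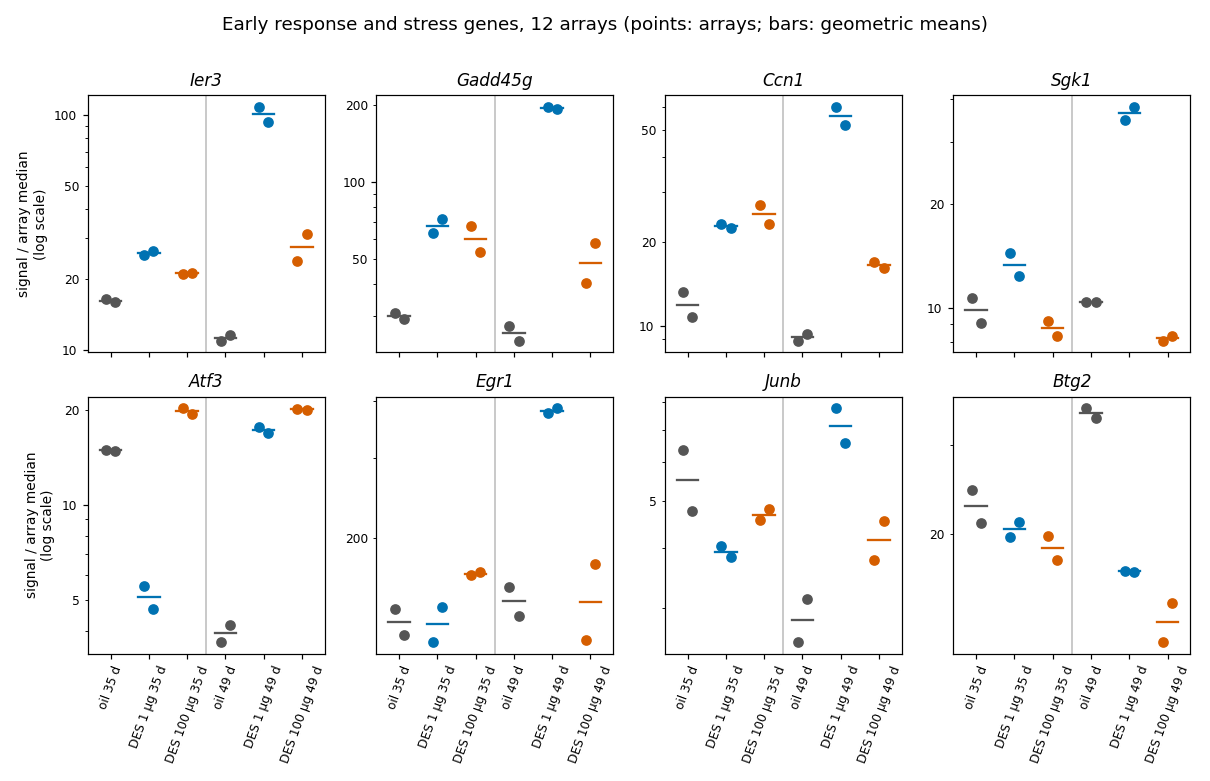
Levels of 8 early response genes on all 12 arrays, as signal over the array median on log axes; points are arrays and bars are geometric means of the 2 arrays, with 35 days left and 49 days right of the line. The DES 1 µg arrays at 49 days are the highest for Ier3, Gadd45g, Ccn1, Sgk1, Egr1 and Junb, not for Atf3 or Btg2; Ier3 reads 108 and 93.9 there.

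Of the 22 detected members of a list of early response feedback and stress genes, 9 rose and 2 fell, with a median of 0.41 against -0.15 over all genes. Besides those named above, the rises were Zfp36l1, which promotes decay of AU-rich mRNAs (0.85), Klf9 (0.85), Ier2 (0.49) and Dusp5, a phosphatase that acts on ERK (0.44). Btg2, an antiproliferative early gene, fell by 1.04 on the log2 scale (SE 0.13), from 35.5 and 34.1 to 16.9 and 16.8, and Gadd45b fell by 0.81. Other early genes did not pass: Fos differed by 0.05, Zfp36 by 0.08, Dusp6 by -0.21 and Nfkbia by -0.24. Of the 10 detected AP-1 and Egr factors, Egr1, Junb and Jun (0.59) rose and none fell, with a median of 0.38 that dropped to 0.05 with array signal as a covariate. Klf9 had an adjusted p of 0.0505 without the oil array of replicate 1, Zfp36l1 of 0.0888 and 0.0953 without the DES 1 µg or oil array of replicate 1, and Gadd45b of 0.126, 0.112 and 0.190 without DES 1 µg replicate 1, DES 1 µg replicate 2 or oil replicate 2. Without each array in turn, Jun had adjusted p-values of 0.0749 to 0.131, Dusp5 of 0.0594 to 0.0879, and Ier2 0.143 without the DES 1 µg array of replicate 1, 0.0796 without the oil array of replicate 1 and 0.119 without that of replicate 2.

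Across ages, where the DES 1 µg difference at 35 days was tested against that at 49 days, Ier3 had 0.67 at 35 days, Gadd45g 1.17, Ccn1 0.92 and Egr1 -0.02. Sequence upstream of 4 of these genes is shown because the windows differ in the response elements they hold. The windows are the 250 bases before the start of each gene in RefSeq, build GRCr8, read 5′ to 3′ on the gene's strand: Egr1 at chr18:26736828-26737077 (plus strand), Dusp5 at chr1:262543524-262543773 (plus strand), Ier2 at chr19:40399123-40399372 (plus strand) and Gadd45g at chr17:13530352-13530601 (minus strand). Capitals mark serum response elements (the CArG box) in Egr1 and Dusp5 and the cAMP response element TGACGTCA in Ier2. The Gadd45g window held no match.
Egr1: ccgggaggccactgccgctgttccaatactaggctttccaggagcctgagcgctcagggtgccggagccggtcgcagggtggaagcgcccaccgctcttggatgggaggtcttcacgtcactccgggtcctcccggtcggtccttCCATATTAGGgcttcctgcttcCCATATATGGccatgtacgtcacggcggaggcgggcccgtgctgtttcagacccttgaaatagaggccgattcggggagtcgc
Dusp5: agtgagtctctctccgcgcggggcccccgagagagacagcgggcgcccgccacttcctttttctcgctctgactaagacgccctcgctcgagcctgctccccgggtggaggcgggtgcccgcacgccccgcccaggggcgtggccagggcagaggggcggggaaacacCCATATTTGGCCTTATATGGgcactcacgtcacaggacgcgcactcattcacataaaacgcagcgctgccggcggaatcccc
Ier2: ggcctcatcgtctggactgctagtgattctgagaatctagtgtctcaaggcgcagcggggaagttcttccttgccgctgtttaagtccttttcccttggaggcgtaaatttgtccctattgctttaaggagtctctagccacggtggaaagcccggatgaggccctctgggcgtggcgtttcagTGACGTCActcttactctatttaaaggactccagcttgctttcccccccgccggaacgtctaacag
Gadd45g: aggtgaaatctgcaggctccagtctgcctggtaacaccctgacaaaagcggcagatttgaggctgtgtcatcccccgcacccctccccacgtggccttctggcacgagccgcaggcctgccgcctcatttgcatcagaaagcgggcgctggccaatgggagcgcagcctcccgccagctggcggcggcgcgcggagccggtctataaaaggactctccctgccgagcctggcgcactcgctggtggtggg

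Each motif was looked for on both strands: the serum response element, the AP-1 site TGACTCA, the cAMP response element and the palindromic estrogen response element. The Egr1 matches began 105 and 83 bases upstream of the start, those of Dusp5 82 and 72 bases upstream and that of Ier2 66 bases upstream. Of the 11 windows found for the AP-1 and Egr list, 3 held a serum response element, 2 a cAMP response element and 0 an AP-1 or estrogen response element. Of the 31 windows found for the early response list, the counts were 3, 5, 1 and 0 in the order serum response, cAMP response, AP-1 and estrogen response element. Over all 33469 rat windows the shares were 1.50% for the serum response element, 1.59% for the cAMP response element, 4.05% for the AP-1 site and 0.0239% for the estrogen response element. A match describes letters in the window and is no evidence of binding, and windows of Ier3 and Atf3 were not in the table.

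Most of the detected adipocyte genes rose. Fabp4, the fatty acid carrier of fat cells, was at 7.87 and 7.52 in oil and at 28.6 and 27.4 with DES 1 µg (1.86, SE 0.11, limma adjusted p = 9.13e-05). Adiponectin (Adipoq), a hormone of fat cells, was at 9.88 and 9.54 against 34.0 and 31.1 (1.74, SE 0.16). Of 14 detected adipocyte genes, 10 rose and 1 fell (Dgat1, -0.53), with a median of 0.84. Pparg, the master regulator of fat cells, rose by 1.26, Lpl, which frees fatty acids from circulating lipid, by 0.99, and Cd36, a fatty acid transporter, by 1.46. The number of rises was 10 under 75th percentile scaling, 11 under quantile normalization and 10 with the covariate. In a cut of tissue, more cells of a type and more RNA per cell cannot be told apart.

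Several genes of fibroblasts and vessels rose as well. Of 17 detected fibroblast and collagen matrix genes, 10 rose and 1 fell, with a median of 0.59. Osteoglycin (Ogn), a small leucine-rich proteoglycan, was at 2.92 and 3.1 in oil and 10.3 and 12.1 with DES 1 µg (1.89, SE 0.15). Dpt, dermatopontin of the matrix, rose by 1.67, Col5a1 by 1.61, Loxl1, a lysyl oxidase of elastic fibres, by 1.36, matrix Gla protein (Mgp) by 1.31 and Dcn, decorin, by 1.07. Fmod, fibromodulin, fell by 0.61 (adjusted p = 0.0726 to 0.157 when single arrays were left out). Among 7 detected endothelial genes, Emcn (1.51), Pecam1 (1.21), Egfl7 (0.63) and Kdr (0.62) rose, while Vwf, the clotting factor carrier, fell by 1.09 and Plvap by 0.46. Kdr had adjusted p-values of 0.0713 to 0.143 without single arrays. Cma1, the mast cell chymase, was at 11.3 and 10.8 in oil and 36.6 and 33.3 with DES 1 µg (1.66, SE 0.18). It was 1 of 2 detected mast cell and eosinophil genes, and the other, Tpsab1, differed by -0.33 and did not pass.

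Summed levels of defining markers include genes named above, among them Fabp4, Adipoq, Lpl, Emcn, Pecam1, Kdr, Cma1 and Dcn. The sums are therefore no separate support for those rises. The 4 measured adipocyte markers summed to 396 and 379 in oil and to 703 and 675 with DES 1 µg, with 3 rising. The 3 endothelial markers summed to 28.1 and 25.9 against 47.2 and 50.2, and all 3 rose. The 3 mast cell markers, of which 1 was detected on all 4 arrays, summed to 12.6 and 12.3 against 47.8 and 43.4. The 3 fibroblast markers, of which 2 were detected on all 4 arrays, summed to 824 and 980.5 against 1591 and 1196. Luminal markers summed to 1747 and 1595 in oil and 1223 and 1151 with DES 1 µg. Basal markers summed to 435 and 392 against 334 and 318, so both epithelial sums were lower. Of the 4 luminal markers 2 fell and 1 rose, and Krt19 made up a large part of the sum. Of the 5 basal markers 2 fell and 0 rose, while Krt14 was higher on both DES arrays but did not pass. The basal and myoepithelial list, which holds more genes, had a median of 0.26, with 7 of 10 genes higher on both DES arrays than on both oil arrays and 2 lower, beside 27.8% and 50.9% of all tested genes. The macrophage marker Cd74 was at 23.7 and 24.8 against 24.9 and 24.0, and the 3 measured lymphocyte markers summed to 7.27 and 7.24 against 7.88 and 7.90. The part of cell make-up in any single gene's difference was not tested.

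**Figure D2:**
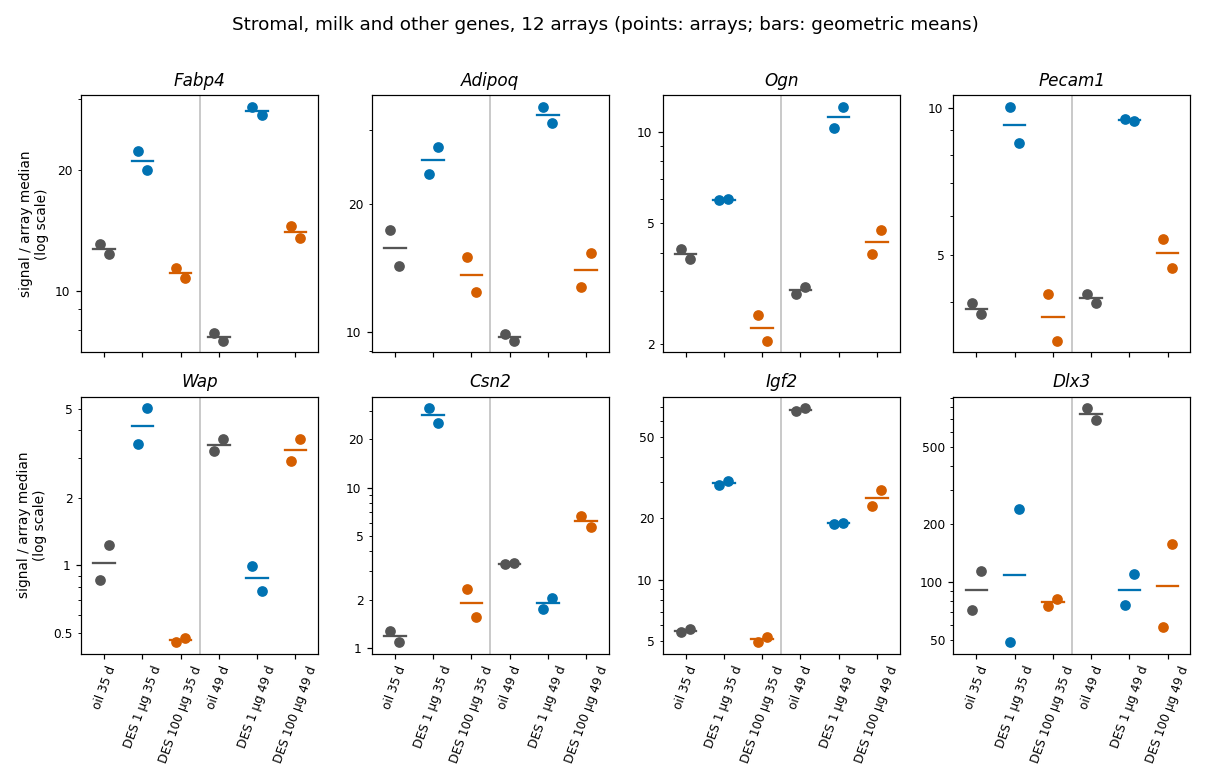
Levels of 8 stromal, milk and other genes on all 12 arrays, as signal over the array median on log axes; points are arrays and bars are geometric means, with 35 days left and 49 days right of the line. Fabp4, Adipoq and Ogn are highest in the DES 1 µg arrays at 49 days, while Igf2 and Dlx3 are highest in the oil arrays at 49 days, Dlx3 at 793 and 686.

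Of the markers that define mammary epithelium, Krt19, Epcam, Cldn3, Cdh1 and Krt14 were detected in both groups, while Krt8, Krt18, Gata3, Acta2 and Trp63 were not among the fitted genes. The 3 defining skeletal muscle markers were not among the fitted genes either. Krt19, a luminal keratin, was at 829 and 725 in oil and 402 and 400 with DES 1 µg (-0.95, SE 0.13). It was lower on both DES arrays than on both oil arrays, as were 50.9% of all tested genes. Of 12 detected luminal genes 5 fell (Ehf, Krt7, Krt19, Cldn7, Cldn3) and 2 rose (Cdh1 at 0.74 and Tfap2c at 0.67), with a median of -0.27, while quantile normalization gave 4 falls and 4 rises and the covariate 3 falls and 0 rises. Cldn3 had an adjusted p of 0.0515 without the DES 1 µg array of replicate 1 and 0.0640 without the oil array of replicate 1, Cdh1 of 0.0981 to 0.120 and Tfap2c of 0.0649 to 0.0990 without each array in turn. Among 10 basal and myoepithelial genes, Vim (1.25) and Tpm1 (1.18) rose while the smooth muscle genes Cnn1 and Tagln fell by 0.64 and 0.56. Those last 2 did not pass under 75th percentile scaling, where 3 genes of the list rose and 0 fell, nor under quantile normalization with 5 and 0.

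Of 14 detected matrix proteases and their inhibitors, 7 rose and 2 fell, beside 9.44% and 23.4% of all tested genes. Their median was 0.82, and 0.33 with array signal as a covariate. Plat, tissue plasminogen activator, was at 1.71 and 1.29 in oil and 6.19 and 7.04 with DES 1 µg (2.15, SE 0.31; 1.61 with the covariate). The other 8 arrays read 4.69 to 14.2, so for Plat the oil pair at 49 days was the low one. Mmp11 (1.34), Mmp23 (1.32), Mmp7, matrilysin (1.04), the lysosomal protease Ctsk (1.02) and the inhibitor Tfpi (1.27) were among the rises. Mmp3, stromelysin 1, fell: it was at 126 and 113 in oil, 47.9 and 44.1 with DES 1 µg (-1.38, SE 0.16), and 188 and 216 with DES 100 µg.

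Several milk protein genes were lower with DES 1 µg than with oil at 49 days. Wap, whey acidic protein, was at 3.23 and 3.68 in oil and 0.992 and 0.773 with DES 1 µg (-1.98, SE 0.24, limma adjusted p = 0.00140). Casein kappa (Csn3) was at 1073 and 1046 against 351 and 361 (-1.57, SE 0.24), and lactalbumin (Lalba), which with a galactosyltransferase makes lactose, at 689 and 667 against 347 and 301 (-1.07, SE 0.15). Of 16 detected milk and alveolar genes, 8 fell and 1 rose, the fat transporter Cd36, with a median of -0.42; the split was 8 and 1 under 75th percentile scaling, 6 and 2 under quantile normalization, and 5 and 1 with the covariate. Csn2 and Csn1s2a differed by -0.82 and -1.17, and Csn1s1 by 0.16, which did not pass. Csn2 had adjusted p-values of 0.0511 to 0.109 without each array in turn, Csn1s2a of 0.0530 without the DES 1 µg array of replicate 1 and 0.0521 without the oil array of replicate 1, and Glycam1 (-3.06) of 0.106 to 0.115.

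Sterol synthesis genes were lower as well. Of 22 fatty acid and cholesterol synthesis genes, 13 fell and 1 rose (Mvk, 0.32), with a median of -0.51. Squalene epoxidase (Sqle) was at 16.8 and 17.1 in oil and 6.82 and 6.28 with DES 1 µg (-1.38, SE 0.17), and Idi1 fell by 1.19 and Fdft1, squalene synthase, by 1.07. Fatty acid synthase (Fasn) fell by 0.52, with adjusted p-values of 0.0581 to 0.127 without each array in turn. The falls numbered 12 under 75th percentile scaling, 10 under quantile normalization and 7 with the covariate.

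The progesterone and prolactin receptor genes, amphiregulin and Krt14 did not pass. The progesterone receptor gene Pgr was at 6.89 and 6.67 in oil and 5.89 and 5.47 with DES 1 µg (-0.26, SE 0.11, limma adjusted p = 0.113). The prolactin receptor gene Prlr was at 2.68 and 3.12 against 3.52 and 3.50 (0.28, SE 0.12, limma adjusted p = 0.114). Amphiregulin (Areg) was at 1524 and 1353 against 1500 and 1575 (0.10, SE 0.13), so the groups overlapped, and Krt14 at 90.9 and 92.2 against 109 and 106 (0.23, SE 0.10). Under quantile normalization Areg and Krt14 each differed by 0.53 and passed. A second probe of Krt14 gave 0.76 (SE 0.14, adjusted p = 0.00730). The estrogen receptor gene Esr1 was not detected in any group and was not tested.

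Of 13 detected estrogen-responsive genes 4 fell (Krt19, Fkbp4, Wnt4 and Ctsd) and Igf1 rose by 0.97, with a median of -0.16 against -0.15 over all genes; it was 0.09 under quantile normalization. Igf1 had an adjusted p of 0.152 without the DES 1 µg array of replicate 1 and 0.152 without the oil array of replicate 1. Igf2, a growth factor mainly of fetal and stromal tissue, was at 67.1 and 69.3 in oil and 18.9 and 19.1 with DES 1 µg (-1.85, SE 0.11, limma adjusted p = 0.000108). Pthlh, the parathyroid hormone-related peptide that patterns mammary mesenchyme, fell from 24.6 and 25 to 12.6 and 12.7 (-0.97, SE 0.20), and the vitamin D receptor gene Vdr fell by 0.91. Pthlh had an adjusted p of 0.0505 without the DES 1 µg array of replicate 1, and Vdr of 0.0571 to 0.0877 without that array or either oil array. Of 15 hormone receptors and cofactors 4 rose (Pparg, Thra, Rarb, Nr2f1) and 2 fell, Vdr among them, with a median of -0.04. With the covariate 1 rose and 0 fell, with a median of 0.13.

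**Figure D3:**
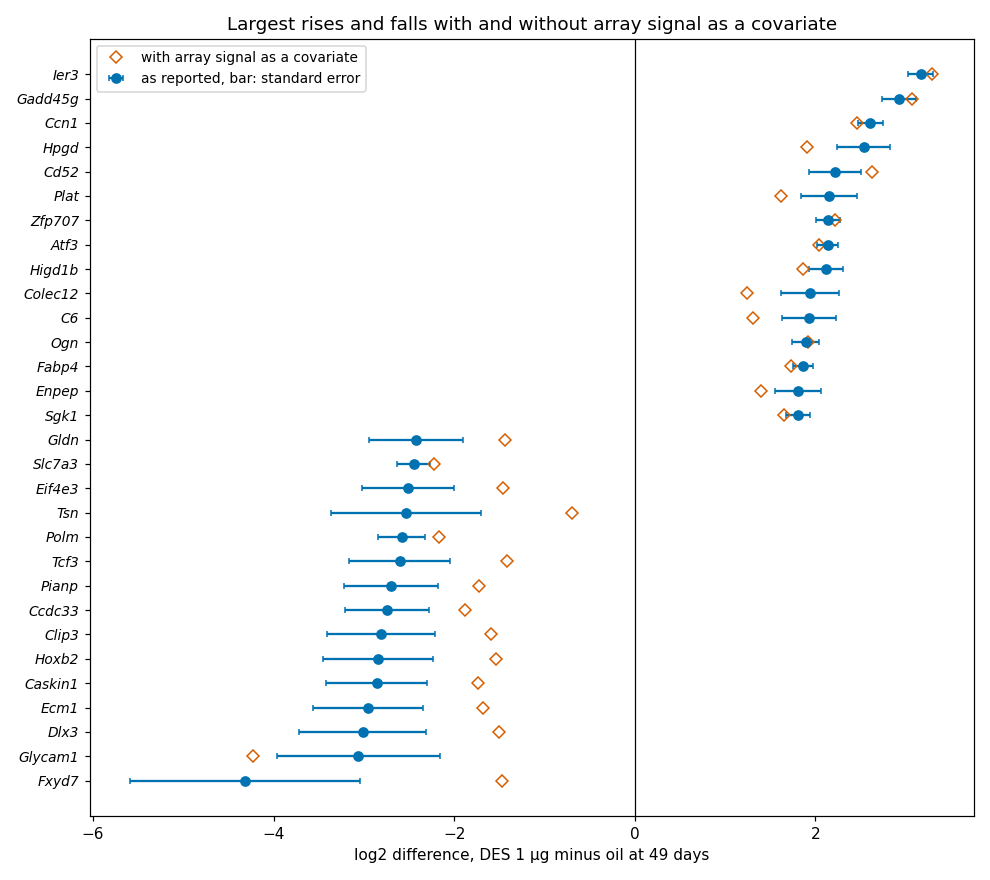
Genes with a symbol that had the 15 highest rises and 15 deepest falls, as log2 difference with DES 1 µg minus oil at 49 days (points, with bars for SE) and the same value with array signal as a covariate (open diamonds). With the covariate Ier3 goes from 3.16 to 3.29 and Colec12 from 1.94 to 1.24, and among the falls Dlx3 goes from -3.01 to -1.50.

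Several of the largest falls were in genes that read high on the oil arrays at 49 days and lower on all other arrays. Dlx3, a homeobox gene, was at 793 and 686 in oil and 75.8 and 110 with DES 1 µg (-3.01, SE 0.70), and it read 49.0 to 239 on the other 8 arrays. Fxyd7, a regulator of the sodium pump, was at 68.9 and 54.9 against 2.10 and 4.53 (-4.32, SE 1.27), and had an adjusted p of 0.0768 to 0.149 without each array in turn. With the covariate, Dlx3 was at -1.50 (adjusted p = 0.0471) and Fxyd7 at -1.47, which no longer passed (adjusted p = 0.131). The falls of Hoxb2, Clip3, Ecm1, Caskin1 and Tcf3, a partner of bHLH factors, shrank from -2.84, -2.81, -2.95, -2.86 and -2.61 to -1.54, -1.60, -1.68, -1.74 and -1.42, and each still passed.

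Several of those falls did not pass when 1 array was left out, which leaves 1 array in a group. Without the DES 1 µg array of replicate 1 the differences were -2.74 for Dlx3 and -2.59 for Ecm1. Without the oil array of replicate 1 they were -2.91 and -2.78. Dlx3 had an adjusted p of 0.0801 and Ecm1 of 0.0618 without the DES 1 µg array of replicate 1, and 0.0698 and 0.0537 without the oil array of replicate 1. Clip3, Hoxb2 and Tcf3 had 0.0643, 0.0624 and 0.0641 without the former and 0.0616, 0.0562 and 0.0551 without the latter. Gldn, gliomedin, had 0.0538 and 0.0598 without those same arrays, Eif4e3 had 0.0584 without the DES 1 µg array of replicate 1, and Tsn had 0.0984 to 0.182 without each array in turn. Gldn (adjusted p = 0.0589) and Tsn (adjusted p = 0.281) did not pass with the covariate. By contrast, Slc7a3, a transporter of cationic amino acids, was at 23.8 and 22.5 in oil against 4.21 and 4.29 (-2.45, SE 0.18) and at -2.23 with the covariate. Polm, a DNA repair polymerase, changed from -2.58 to -2.17.

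Other large rises were in genes of varied function. Hpgd, which breaks down prostaglandins, was at 3.03 and 3.08 in oil and 20.0 and 15.7 with DES 1 µg (2.54, SE 0.29; 1.91 with the covariate). Cd52, a small antigen of lymphocytes and other cells, was at 2.68 and 3.20 against 14.3 and 13.0 (2.22, SE 0.29). Zfp707 rose by 2.14, Higd1b, a pericyte gene in mouse, by 2.11, Colec12, a scavenger receptor, by 1.94, complement component C6 by 1.93 and Enpep, an angiotensin-cleaving peptidase, by 1.81. With the covariate Colec12 was 1.24 and C6 was 1.31, both still passing. No overlap between the groups was a condition for naming these genes as large rises. For Hpgd, Zfp707, Colec12, C6 and Enpep the oil pair at 49 days read lower than all other 10 arrays of the study. Colec12 was at 2.16 and 2.24 on that pair and at 3.89 to 8.43 elsewhere. C6 was at 1.48 and 1.49 against 2.22 to 9.68, and Enpep at 1.65 and 2.18 against 3.95 to 7.57. Cd52 and Higd1b did not have this pattern.

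Counts in the lists of basic cell functions are read against the shares over all tested genes, of which 23.4% fell and 9.44% rose. Among the 2245 brightest, 32.3% fell and 4.77% rose. Of 40 mitochondrial oxidative phosphorylation genes 17 fell and 1 rose, with a median of -0.40. DES 100 µg against the same oil arrays gave 19 lower and 0 higher at -0.52, and 0 of the 40 passed between the doses. Quantile normalization gave 10 falls and 3 rises at -0.14, and the covariate 9 falls and 0 rises. Atp5mc1, a subunit of ATP synthase, was at 546 and 502 in oil and 192 and 188 with DES 1 µg (-1.46, SE 0.21), and Cox8a fell by 1.18. Cox8a had adjusted p-values of 0.0590 and 0.0571 without the DES 1 µg array of replicate 1 or 2 and 0.0719 without the oil array of replicate 1. Ndufb9, at -1.07, had adjusted p-values of 0.0631 to 0.098 without each array in turn, and its second probe gave -0.47. Of 46 ribosomal protein genes 10 fell and 1 rose (Rps19, 1.00, adjusted p = 0.0498), with a median of -0.42, but 75th percentile scaling gave 3 falls and 2 rises and quantile normalization 2 falls and 4 rises at -0.01. The covariate gave 2 falls and 0 rises at -0.15, and the main count of falls lies near the share over all genes. DES 100 µg against the same oil arrays gave 20 of 46 lower and 0 higher at -0.52. Rps26 fell by 2.17 (SE 0.27), from 13.4 and 12.6 to 2.69 and 3.1. Rps19 had adjusted p-values of 0.0898 to 0.208 without each array in turn.

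**Figure D4:**
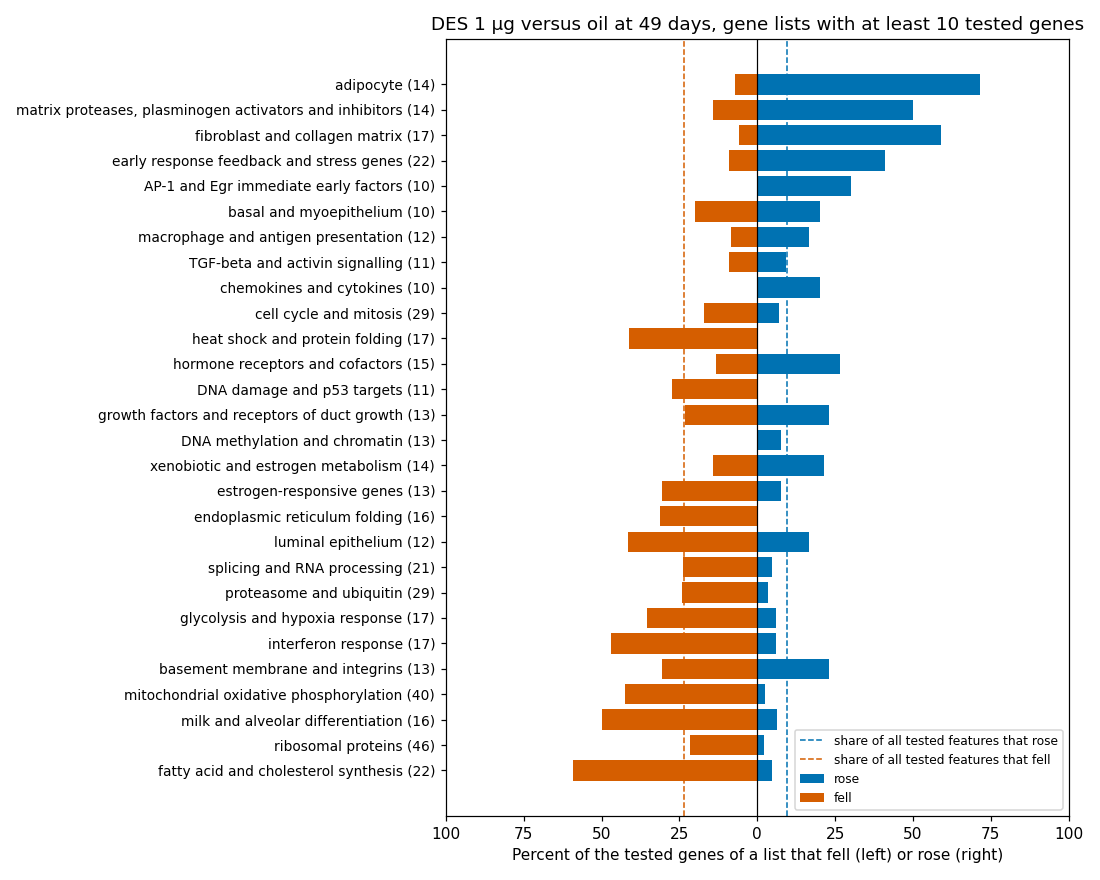
Share of detected genes in each list with at least 10 tested members that rose or fell, in percent; dashed lines mark the shares over all 8980 tested. Adipocyte and fibroblast lists hold the highest shares of rises, and the fatty acid and cholesterol list the highest share of falls.

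Of 17 interferon response genes 8 fell and 1 rose (Igtp, 0.70), beside 23.4% and 9.44% of all tested genes. Their median was -0.32. Falls numbered 5 under quantile normalization and 5 with the covariate. At 35 days 15 of 21 were lower with DES 1 µg and 0 higher, with a median of -1.04. At 49 days DES 100 µg against the same oil arrays gave 6 of 17 lower and 1 higher, at -0.31. Usp18, which removes Isg15, fell by 0.85 from 40.5 and 42.7 to 23.5 and 22.6. Bst2, tetherin, differed by -1.02, with adjusted p-values of 0.0658, 0.104 and 0.0562 without the DES 1 µg array of replicate 2, the oil array of replicate 1 or the oil array of replicate 2. Of 17 heat shock genes 7 fell and 0 rose, Hsph1, an Hsp110 chaperone, by 1.18, with a median of -0.01, though quantile normalization gave 3 falls and 3 rises and the covariate 3 falls and 0 rises. Among 29 cell cycle genes 5 fell and 2 rose, with a median of -0.01, both counts below the shares over all genes. The replication clamp gene Pcna fell by 1.14 (SE 0.12), from 322 and 303 to 145 and 138. Rrm1 rose by 0.82, with adjusted p-values of 0.0598 to 0.0711 without each array in turn, and its second probe gave 0.50 (adjusted p = 0.0642). Under quantile normalization the cell cycle list held 5 rises and 3 falls.

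For genes not above background on the oil arrays, the difference is a lower bound, set against the lowest signal that the authors called detected on the same arrays. Cpa3, a mast cell carboxypeptidase, was at least 9.17-fold higher with DES 1 µg. Rassf9 was at least 3.88-fold higher, Gtf3c6, a transcription factor IIIC subunit, at least 3.31-fold, Ccng2 at least 2.63-fold and Pkdcc at least 2.45-fold. Olfml3, a secreted matrix protein, was at least 2.40-fold higher, Plxnb2 at least 2.20-fold and Ctsa, a lysosomal protease, at least 2.20-fold. These genes were picked by the size of the bound and lie outside the genes tested. Their oil values at 49 days were not above background, so no p-value is given for any of them. For each of them the oil pair at 49 days read lower than every other array of the study. Gtf3c6 was at 1.01 and 1.02 on that pair, and at 4.49 and 3.61 in oil at 35 days. With DES 1 µg at 49 days it was at 3.22 and 3.67. Only Cpa3, Rassf9 and Olfml3 were higher on both DES 1 µg arrays at 49 days than on both oil arrays at 35 days. The part of the lower oil signal in these bounds was not tested.

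The DES 1 µg difference changed between ages for a large share of genes. Of 8955 genes and probes detected on all 8 arrays involved, 1851 passed the test of the change, which is 20.7%: 639 were higher at 49 than at 35 days (7.14%) and 1212 were lower (13.5%). At 35 days itself 349 rose and 459 fell (3.24% and 4.26% of 10775). Since the oil arrays at 49 days enter every such contrast, the change shares their lower signal. Leaving out 1 array moved the count of 1851 to between 474 and 2225: it was 561 without the DES 1 µg array of replicate 2 at 35 days, 562 without the oil array of replicate 1 at 35 days, 1188 without the oil array of replicate 2 at 35 days, 608 and 689 without the DES 1 µg arrays of replicate 1 and 2 at 49 days, and 474 and 860 without the oil arrays of replicate 1 and 2 at 49 days. It was 2225 without the DES 1 µg array of replicate 1 at 35 days. With the covariate 924 passed.

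Among genes with a symbol detected on all 8 arrays, Csn1s2a and Csn2 had the largest negative changes. Glycam1, near or at the floor on the oil arrays at 35 days, is outside that set. Csn2 was at 1.28 and 1.09 in oil and 31.3 and 25.4 with DES 1 µg at 35 days, a difference of 4.58, and at 49 days it was -0.82, so the change was -5.40 (SE 0.30, limma adjusted p = 0.000158). Csn1s2a changed by -6.74 and Wap by -4.0, from 2.02 at 35 days to -1.98. Igf2 went from 5.56 and 5.75 in oil and 29.3 and 30.6 with DES 1 µg at 35 days to 67.1 and 69.3 and 18.9 and 19.1 at 49 days, a change of -4.25. Hpgd went the other way, from -2.22 to 2.54, a change of 4.76, and Atf3 from -1.54 to 2.13, a change of 3.68. Stc2, a secreted stanniocalcin, changed by 3.46, from -4.12 at 35 days to -0.66 at 49 days. Smim38 changed by 3.07, from -3.0 to 0.07, and the 49-day values of Stc2 and Smim38 did not pass.

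The doses were compared at 49 days by a contrast of the DES 100 µg and DES 1 µg arrays. The values of the oil arrays do not enter that contrast, but a gene was counted only if it was also detected on both oil arrays at 49 days, and the spread was estimated over all 12 arrays. Of 8964 genes and probes, 641 passed (7.15%): 331 were higher at the 100 µg dose (3.69%) and 310 were lower (3.46%). Ier3 was at 24.1 and 31.2 with 100 µg and 108 and 93.9 with 1 µg (-1.88, SE 0.14), and the differences, 100 µg minus 1 µg, were -2.02 for Gadd45g, -1.76 for Ccn1, -1.39 for Egr1 and -2.15 for Sgk1. Atf3 did not pass (0.21). Fabp4 was at 14.5 and 13.5 against 28.6 and 27.4 (-1.0, SE 0.11), with -1.22 for Adipoq and -2.03 for Cma1. Of 16 milk and alveolar genes 9 were higher with 100 µg, with a median of 0.84, Wap by 1.90 and Csn2 by 1.71. Mmp3 was higher by 2.13 and Pgr by 0.83.

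The largest dose differences were in Pcp4, a calmodulin-binding peptide (3.30), Lypd1 (2.38), Mmp3 (2.13) and Mro (2.04), higher with 100 µg, and Cd52 (-4.45), Acsm3 (-2.59), Hepacam2 (-2.38) and Slc13a3 (-2.37), lower with it. Cd52 was at 14.3 and 13.0 with 1 µg and at 0.559 and 0.692 with 100 µg, with oil at 2.68 and 3.20 between them. The replicate 2 arrays of both dose groups were scanned on the same day, and the replicate 1 arrays on different days. Within that shared scan day the values were 3.40, 2.30, 2.29 and 2.30 for Pcp4, Lypd1, Mmp3 and Mro, and -4.23, -2.44, -2.21 and -2.22 for Cd52, Acsm3, Hepacam2 and Slc13a3. With scan day as a block 0 genes passed limma's adjusted threshold, with 1128 at an unadjusted p under 0.05 and 1 residual degree of freedom. With only the 4 arrays of the comparison 55 passed. Leaving out 1 array lowered the count from 641 to 400 and 199 without the DES 100 µg arrays of replicate 1 and 2, and to 182 without either DES 1 µg array.

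Set against oil at 49 days, DES 100 µg gave 639 higher and 1552 lower (7.11% and 17.3% of 8985), with a median of -0.12. That comparison and the DES 1 µg one share their oil arrays. Dlx3 was at -3.01 with 1 µg and -2.94 with 100 µg, Igf2 at -1.85 and -1.44, and Pcna at -1.14 and -0.84, whereas Ier3 was at 3.16 and 1.28 and Egr1 at 1.39 and -0.01. Wap was at -1.98 with 1 µg and -0.07 with 100 µg.

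The authors' deposited table of probes that differ at least 2-fold lists 970 probes for DES 1 µg against oil at 49 days, 509 higher and 461 lower, with no test. Of these 594 were detected on all 4 arrays, of which 157 were higher and 437 lower, and 324 were not detected on either oil array. In the authors' deposited table Ier3 is listed at 8.947, Plat at 4.454, Igf2 at 0.279 and Fxyd7 at 0.0503 as ratios of DES 1 µg over oil.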

How the data were processed

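RNA of 12 animals was measured on 12 one-colour Agilent rat arrays read with Agilent Feature Extraction 9.1.3.1, per the submitters' processing notes. The deposited value table holds background-subtracted signal intensity, within 0.497% of the 10 arrays whose scanner output was used, which leaves out the 49-day oil pair. The authors' normalized values are a ratio to the array median, taken again over the 35-day oil mean, beside P, M or A flags. The authors' deposited 2-fold tables hold the fold of group means. No genome build is named for the array data; promoter windows are from RefSeq, build GRCr8.

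Intensities were divided by the array median, floored at 0.01 and taken to log2. Of 20500 probes, 99 outliers were left out and 13266 were flagged P or M on both arrays of at least 1 group. Probes were named through RefSeq by accession (6579), gene ID (2156), symbol (2427) or older symbol (688), and 8650 stayed unnamed. The brightest probe stood for each gene, a choice for 1082 genes, leaving 11916 genes and probes, 6722 with a symbol. A group-mean model over all arrays was fitted in limma 3.58.1 (R 4.3.3; 6 residual degrees of freedom), with Benjamini-Hochberg adjustment over the 11916 and calls counted among those detected on every array compared. Tables and figures were made with Python 3.11.15, pandas 2.3.3 and matplotlib 3.10.9. Named genes are the 15 largest rises and 15 largest falls that passed without overlap, the 4 largest each way for the change between ages and for dose, list members, and Pgr, Prlr, Areg, Krt14 and Csn2; the largest bounded rises are named too. The members and the 35 gene lists were chosen with earlier results of these data known.

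On simulated data with 100 genes changed 2-fold and 100 changed 4-fold among 11916, the fit recovered 74% and 96% for DES 1 µg against oil at 49 days, with 6.08% of 181 calls false. For the change between ages it recovered 44% and 82% (3.82% of 131 false), and for the dose comparison 79% and 97% (6.88% of 189 false). Precision is limited by 2 arrays a group. The simulation drew independent noise, with no dim oil arrays and a far smaller share of genes changed than the 32.9% that passed. Its false shares therefore do not cover the lower signal of the oil arrays at 49 days. Same-numbered arrays of the DES 1 µg and oil groups at 49 days had deviations from their group means that correlated at -0.21. With 2 arrays a group the deviations of a gene mirror each other, so this cannot decide whether the replicate numbers pair the samples. The main fit took no pairing.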

Additional observations from a re-analysis of the deposited data

Results flagged for a closer look

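The values below are changes in the DES 1 µg difference from oil between 35 and 49 days, on the log2 scale, for genes named in the report that passed limma's adjusted test of that change. A positive value means a higher DES 1 µg difference at 49 days. The oil arrays at 49 days, with the lowest signal of the study, enter each of them, and the part of that signal was not tested.

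Among early response genes the change was 2.5 for Ier3, 1.76 for Gadd45g, 1.69 for Ccn1, 1.37 for Sgk1, 3.68 for Atf3, 1.40 for Egr1, 1.82 for Junb, 0.66 for Ier2, 1.06 for Dusp5, 1.15 for Zfp36l1 and -0.89 for Btg2. In adipocyte, matrix, vessel and mast cell genes it was 1.06 for Adipoq, 1.13 for Fabp4, 2.06 for Cd36, 1.29 for Ogn, 1.40 for Dpt, 0.87 for Cma1, 0.89 for Higd1b, 1.73 for Colec12 and 1.39 for Enpep. Of the proteases, Plat changed by 1.89, Mmp7 by 1.50 and Mmp11 by 1.23.

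Milk genes changed by -4.0 (Wap), -6.74 (Csn1s2a), -5.40 (Csn2) and -1.91 (Csn3). In lipid, epithelial and hormone-related genes the change was -0.85 for Idi1, -1.02 for Cldn7, 1.26 for Cdh1, 0.92 for Tfap2c, 0.60 for Prlr, -1.09 for Vdr and -4.25 for Igf2.

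Genes with large falls at 49 days changed by -3.27 (Dlx3), -2.98 (Ecm1), -3.12 (Caskin1), -3.18 (Hoxb2), -2.89 (Clip3), -2.98 (Ccdc33), -2.58 (Pianp), -2.87 (Polm), -2.29 (Slc7a3) and -2.87 (Gldn). Mitochondrial, ribosomal, interferon, chaperone and replication genes changed by -1.74 (Atp5mc1), -1.35 (Cox8a), -1.46 (Ndufb9), -2.51 (Rps26), 0.93 (Usp18), -0.93 (Hsph1) and -1.04 (Pcna). For the remaining genes it was 4.76 for Hpgd, 1.96 for Zfp707, -1.44 for Mro, 2.14 for Pcp4, 1.08 for Acsm3, -1.12 for Slc13a3, 3.07 for Smim38 and 3.46 for Stc2.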

How the results depend on the processing

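For DES 1 µg against oil at 49 days, where 2953 passed, quantile normalization gave 1369 lower, no detection filter gave 1325 higher, and array signal as a covariate gave 1687, of which 445 were higher and 1242 lower. The change between ages, with 1851 as reported, had 924 with the covariate, 321 higher and 603 lower. The dose comparison, with 641 as reported, had 503 higher among genes with a mean log2 level of at least 1. It had 1529 with the covariate, 718 higher and 811 lower, and 55 with only its own arrays, 25 higher and 30 lower (1503 at an unadjusted p under 0.05 with 2 residual degrees of freedom). With scan day as a block it had 0 in limma, 0 higher and 0 lower, with 1128 at an unadjusted p under 0.05. The causes were not tested, apart from the fewer residual degrees of freedom that those last settings leave by construction.

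Leaving out 1 array gave 1006 to 1494 for DES 1 µg against oil (318 to 463 higher, 680 to 1068 lower), 474 to 2225 for the change between ages (194 to 919 higher, 271 to 1306 lower) and 182 to 400 for dose (74 to 249 higher, 78 to 151 lower). Of 94 named genes that passed, 57 passed without each array in turn. Genes that did not pass as reported changed sign: Pcp4 was 0.047 with the covariate, and Smim38 was -0.28 with the covariate and -0.041 to 0.18 when single arrays were left out.

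A replicate block gave 3456 passing for DES 1 µg against oil, 2434 for the change between ages and 849 for dose. A crossed replicate block, chosen after seeing the data, gave 3558 for DES 1 µg against oil, 1121 higher and 2437 lower. Under 75th percentile scaling 42.9% of the genes passing in the change between ages were higher, and 50.3% under quantile normalization. The authors' normalized table gave 2917 for DES 1 µg against oil. Normexp background correction was not run, since the oil arrays at 49 days had no scanner file used here. The higher detection limit of those arrays bounds what could be tested.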

Other observations

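Single genes outside the account above also passed at 49 days in the same fit. Over all 8980 tested, 9.44% rose and 23.4% fell. The counts of falls in the Wnt and Notch list and in the xenobiotic list lie near or below that share. Of 8 detected Wnt and Notch genes 3 rose and 2 fell, with a median of 0.04. Sfrp2, a secreted Wnt modulator, rose by 1.46, Wnt6 by 0.99 and Fzd1 by 0.66, while Wnt4, a progesterone target in the mammary gland, fell by 0.80 and Notch3 by 0.94. Of 13 detected basement membrane and integrin genes, 3 rose (Lamb1, 1.45; Nid1, 1.35; Lama4, 0.60) and 4 fell, among them the epithelial laminin chain Lamb3 (-1.04) and Itgb4 of hemidesmosomes (-0.64), with a median of -0.40. Under 75th percentile scaling the split of that list was 3 rises and 1 fall, and 3 and 2 under quantile normalization. Of 14 xenobiotic and estrogen metabolism genes 3 rose (Ephx1, Cyp7b1 and Sult1a1) and 2 fell, Gstm1 by 0.55 and Hsd11b2, which inactivates glucocorticoids, by 1.31. Of 6 prostaglandin genes Hpgd and Tbxas1 rose and Ptgds, a prostaglandin D synthase, fell by 0.83.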
